A study of Mus musculus with 8 samples.

Results

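The 96 genes described here encode, for the most part, nuclear subunits of the mitochondrial respiratory chain and ATP synthase, and need not include all of them. They were chosen by symbol alone, as protein-coding mm10 nuclear genes beginning Nduf followed by a, b, c, s or v, Uqcr, Cox4 to Cox8 or Atp5, together with Sdha to Sdhd, and they make up 96 of 21887 protein-coding nuclear genes. The Nduf prefix also takes 8 Ndufaf genes, which encode assembly factors of complex I and not subunits of it.

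Complexes I and II pass electrons from NADH and succinate to ubiquinone, complex III hands them on to cytochrome c, and complex IV uses them to reduce oxygen to water. Complexes I, III and IV pump protons out of the mitochondrial matrix, and ATP synthase makes ATP as protons flow back. Quiescent muscle stem cells are small cells with few mitochondria, and their activation is known for a rise in mitochondrial content. A minority of complex IV subunits exist as tissue isoforms encoded by separate genes, some of them used in heart and skeletal muscle or in testis.

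The mark measured was H3K27ac, acetylation of lysine 27 of histone H3, which is found at active promoters and enhancers. Muscle stem cells (satellite cells) of C57BL/6 mice were compared in 2 states. FISC are freshly isolated cells from untreated skeletal muscle, and ASC are cells isolated 2.5 days after a BaCl2 injury, a chemical injury after which satellite cells enter the cell cycle. Each state had 2 H3K27ac libraries made by ChIPmentation, in which antibody-bound chromatin is tagged by a transposase, and each of these 4 libraries had an input library, which was not analysed here. The labels do not say whether replicates came from separate animals, so the p-values measure only the spread between these libraries, which may be technical. Each gene was given a gene-end breadth, the length in kb under the authors' peaks within 2 kb of either gene end, at most 8 kb.

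The peak lists differed in size before any gene was considered. They held 50154 and 54700 peaks over 49.2 and 57.7 Mb in ASC, and 45014 and 43092 peaks over 34.4 and 33.7 Mb in FISC. Read depth is not given in the sources used here, so depth, efficiency of the antibody step and amount of the mark cannot be told apart in the length covered. Defining genes of the labelled cell type were covered: Myf5 had 5.32, 5.45, 5.25 and 5.42 kb and Myod1 had 4.09, 4.86, 4.17 and 4.57 kb in ASC replicates 1 and 2 and FISC replicates 1 and 2. All 8 satellite and myogenic markers were covered in at least 2 libraries, Calcr, a receptor of quiescent cells, in FISC alone. Of these 8, limma called 2 (25.0%) higher in ASC and 1, Calcr (adjusted p = 0.00824), lower, against 26.5% and 3.61% of all genes. Among markers of other cell types, Pdgfra, Dcn, Col1a1, Pecam1, Cdh5, Ptprc, Adgre1, Itgam, Lyz2, Rgs5, Ckm, Myh4 and Myh7 had 0 kb in all 4 libraries. Ly6a had 1.44 and 2.42 kb in ASC and 0 in FISC, and was called higher (limma adjusted p = 0.0156). The summed breadth of the 6 myeloid markers was 1.87 and 3.85 kb in ASC and 1.55 and 1.05 kb in FISC, most of it at Cd68, and that of the 4 fibro-adipogenic markers was 1.44 and 2.42 kb against 0. Other markers of these lists were covered: Acta2 of smooth muscle had at least 2.63 kb, Cd79a of lymphoid cells 1.04 to 1.33 kb, Tek of endothelium 0.614 to 1.38 kb and the fibre myosin gene Myh1 1.74 to 2.33 kb over the 4 libraries. Limma also called Pdgfrb of pericytes (0 and 0.275 kb in ASC, 0.896 and 0.929 kb in FISC, adjusted p = 0.0134) and Myh2 of mature fibres (0.764 and 0.809 kb, 2.51 and 2.46 kb, adjusted p = 0.00260) lower in ASC. It called Tnnt3 of mature fibres higher (2.03 and 2.32 kb in ASC, 0 and 0.061 kb in FISC, adjusted p = 0.00238). The summed breadth of the smooth muscle list was 2.63 and 3.06 kb in ASC and 4.15 and 3.77 kb in FISC, and that of the mature fibre list 4.53 and 5.73 kb against 4.73 and 4.85 kb. Their part in the results below was not tested.

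H3K27ac covered the gene ends of most respiratory chain and ATP synthase genes in both states, and before any scaling the covered stretch was longer in ASC, a direction that reversed for most of them once breadth was divided by each list's total length. Peaks reached the windows of 88 of the 96 genes in at least 2 libraries, and 85 were covered in all 4, against 59.0% of all genes covered in at least 2 libraries. These 88 were fitted with limma together with every other covered gene. Over the whole set, 157 and 179 kb lay under peaks in ASC and 127 and 127 kb in FISC, a ratio of 1.33, against 1.27 for all genes. Breadth was higher in ASC at 22 of the 88 genes and lower at 0 (limma, Benjamini-Hochberg adjusted p under 0.05). The 22 are 25.0% of the fitted genes, where the same test called 26.5% of all 12924 fitted genes higher and 3.61% lower, so the share called was near that of genes at large. At an unadjusted p under 0.05, limma put 41 genes (46.6%) higher and 1, Ndufa10, lower, against 40.3% and 6.10% of all fitted genes.

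The direction was shared by most of the set, and it rests on how the lists are scaled. ASC means exceeded FISC means at 82 genes and fell short at 6, with a median difference of 0.419 kb against 0.304 kb over all fitted genes. The 2 states were fully separated with ASC above at 64 genes (72.7%), against 62.1% of all genes, and with ASC below at 2, Ndufa10 and Ndufb2, against 11.0% of all genes. When each library's breadth was divided by its total covered length and multiplied by the mean total of the 4 libraries, the median difference turned to -0.24 kb for these genes and -0.34 kb for all genes, 3 genes stayed higher (Atp5b, Atp5g1 and Uqcr10) and 17 were lower, against 9.19% and 36.6% of all genes. When every list was instead cut to the same covered length by dropping its weakest peaks, 18 of the 22 remained higher and none was lower, against 15.8% and 13.0% of all genes, with medians of 0.366 and 0.186 kb. This cut drops whole peaks and does not shorten those it keeps, so it cannot test the length of strong peaks. The differences of Atp5a1 and Ndufa12, 0.77 and 0.597 kb, were the same before and after it. The median of these genes stood above that of all genes by 0.116 kb as covered, 0.108 kb after division and 0.180 kb at equal length.

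The number of calls depended on single libraries. It was 34 without ASC replicate 1 and 12 without ASC replicate 2. Without FISC replicate 1 it was 1, Atp5b, and without FISC replicate 2 it was 0, with 20 genes higher at an unadjusted p under 0.05. The median difference stayed between 0.324 and 0.492 kb in these 4 fits, in each of which the lone library of a state was assumed to vary as the other state's libraries did. With 2 libraries a state, an exact permutation test of a single gene cannot give a 2-sided p below 0.333, so each p below comes from limma's pooled estimate of the spread.

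**Figure D1:**
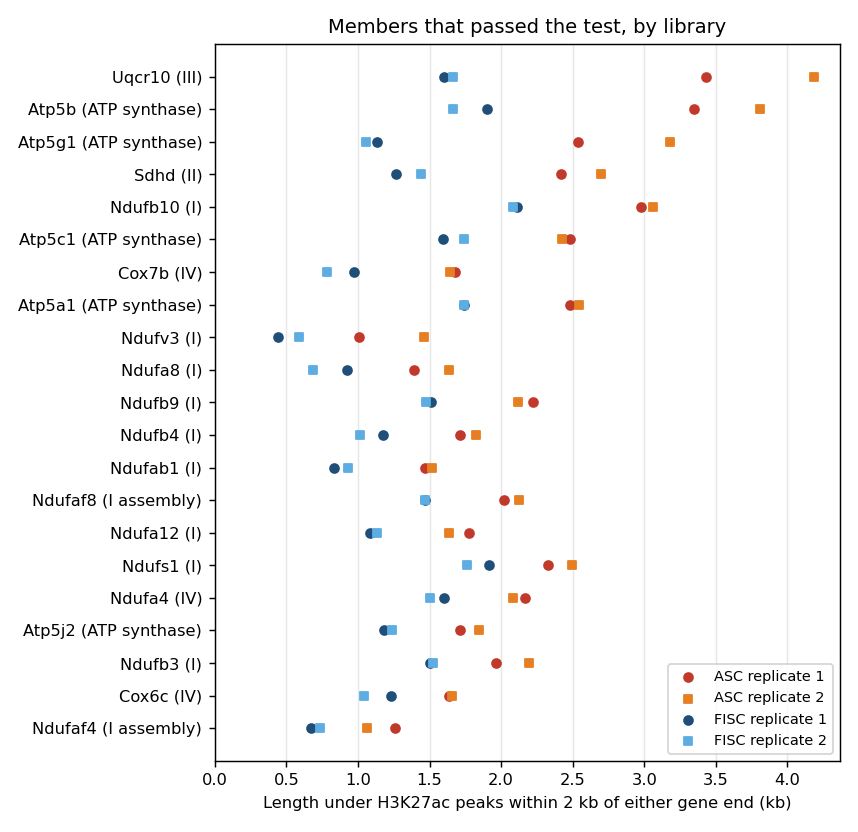
Gene-end length under H3K27ac peaks (kb, horizontal axis) in each of the 4 libraries for 21 of the 22 genes that passed the limma test, 1 row a gene, with colour and symbol giving the library. In every row both ASC points lie to the right of both FISC points as covered, and after division by total covered length 11 of the genes shown turn to a lower ASC mean.

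ATP synthase and complex III held the 3 largest differences, and these were also the 3 that stayed called after division by total covered length. Uqcr10, a small accessory subunit of complex III, spans chr11:4701968-4704344 and had 3.43 and 4.18 kb in ASC and 1.60 and 1.66 kb in FISC. The states did not overlap, with means of 3.81 ± 0.531 kb in ASC and 1.63 ± 0.0453 kb in FISC (SD, n = 2), a difference of 2.18 kb (SE 0.277, limma adjusted p = 0.00793). Much of this lay away from the start: the window at the far end, which overlaps that at the start, had 2.11 and 2.77 kb in ASC and 0.374 and 0.401 kb in FISC. An end of the neighbouring gene Zmat5 lies in these windows, so its signal and that of Uqcr10 cannot be told apart there. At the start of Uqcr10 alone the values were 2.20, 2.19, 1.60 and 1.66 kb (limma adjusted p = 0.0260).

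Atp5b, the catalytic beta subunit of ATP synthase, lies at chr10:128083307-128090388 and had 3.35 and 3.81 kb in ASC and 1.90 and 1.66 kb in FISC. Its means were 3.58 ± 0.327 kb in ASC and 1.78 ± 0.172 kb in FISC (SD, n = 2), a difference of 1.80 kb (SE 0.215, adjusted p = 0.00692 by limma), and it was the gene with the smallest p in the set. At its start it had 2.13 and 2.48 kb in ASC and 1.70 and 1.56 kb in FISC (limma adjusted p = 0.0383). The other window, where an end of Baz2a falls, had 1.22 and 1.33 kb in ASC and 0.202 and 0.1 kb in FISC. Much of the difference thus lay there, where breadth cannot be assigned to 1 gene. Atp5g1, at chr11:96072793-96075694, encodes the c subunit of the membrane rotor and had 2.54 and 3.18 kb in ASC and 1.13 and 1.06 kb in FISC, with no neighbouring gene end in its windows. ASC and FISC libraries were far apart, at 2.86 ± 0.456 kb in ASC and 1.09 ± 0.0544 kb in FISC (SD, n = 2) (difference 1.76 kb, SE 0.242, limma adjusted p = 0.00918), and the start alone gave an adjusted p of 0.00356 in the limma fit.

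Of the 17 ATP synthase genes, all were covered and 5 (29.4%) were called higher, against 26.5% of all genes. The median difference of the 17 was 0.457 kb as covered and -0.38 kb after division. Atp5c1, the gamma subunit that forms the central stalk, had 2.48 and 2.43 kb in ASC and 1.59 and 1.74 kb in FISC (limma adjusted p = 0.0158). Atp5a1, the alpha subunit, had 2.48 and 2.54 kb in ASC and 1.74 and 1.74 kb in FISC (limma adjusted p = 0.0147), and Atp5j2, the membrane subunit f, had 1.72 and 1.85 kb in ASC and 1.18 and 1.24 kb in FISC (limma adjusted p = 0.0288). FISC and ASC did not overlap at any of these 3, but each turned to a lower ASC mean after division, by 0.17 kb for Atp5a1, 0.12 kb for Atp5c1 and 0.09 kb for Atp5j2. The other c subunit genes, which encode the same mature protein as Atp5g1, differed less: Atp5g2 had 2.92 and 3.20 kb in ASC and 2.40 and 2.61 kb in FISC (limma adjusted p = 0.0695) and Atp5g3 had 1.85 and 2.28 kb in ASC and 1.61 and 1.60 kb in FISC (limma adjusted p = 0.117). Atp5l, the membrane subunit g, was the 1 gene of the complex with a lower ASC mean as covered, at 2.06 and 2.70 kb in ASC and 2.46 and 2.64 kb in FISC, and its libraries overlapped.

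**Figure D2:**
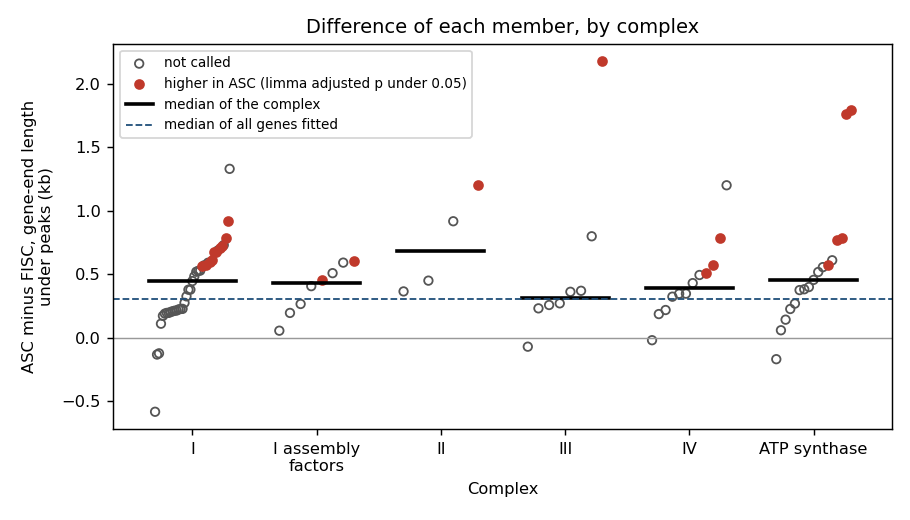
Difference in gene-end length under peaks (ASC mean minus FISC mean, kb, vertical axis) for each of the 88 fitted genes, grouped by complex, with filled points for those passing the limma test, black bars for the median of a complex and a dashed line for the median of all fitted genes. Most points lie above 0 as covered, while after division by total covered length the medians of all groups but complex II fall below 0.

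Complex II, succinate dehydrogenase, is made of the 4 products of Sdha to Sdhd and also works in the tricarboxylic acid cycle. All 4 genes had both ASC libraries above both FISC libraries, as did 62.1% of all genes, with a median difference of 0.685 kb. Of the 4, 1 (25.0%) was called higher, against 26.5% of all genes. That gene was Sdhd, which encodes a membrane anchor and spans chr9:50596340-50603849, with 2.42 and 2.70 kb in ASC and 1.27 and 1.44 kb in FISC and means of 2.56 ± 0.200 kb in ASC and 1.35 ± 0.120 kb in FISC (SD, n = 2) (difference 1.21 kb, SE 0.163, limma adjusted p = 0.00891). Sdhb, the iron-sulphur subunit, had 1.59 and 2.27 kb in ASC and 1.21 and 0.816 kb in FISC (limma adjusted p = 0.0620). Sdha, the flavoprotein that oxidises succinate, had 1.70 and 1.75 kb in ASC and 1.36 and 1.19 kb in FISC (limma adjusted p = 0.0575), and Sdhc, the other membrane anchor, had 1.71 and 1.91 kb in ASC and 1.43 and 1.46 kb in FISC (limma adjusted p = 0.0965). After division by total covered length the difference stayed above 0 at Sdhd and Sdhb and was below 0 at Sdha and Sdhc, with a group median of 0.03 kb.

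Complex I is the NADH dehydrogenase and has the most subunits of the complexes. Of its 39 genes in the set 10 (25.6%) were called higher and 0 lower, against 26.5% and 3.61% of all genes. The median difference of the 39 was 0.447 kb as covered and -0.26 kb after division. Ndufb10, in the membrane arm, had 2.98 and 3.06 kb in ASC and 2.11 and 2.08 kb in FISC and means of 3.02 ± 0.0629 kb in ASC and 2.10 ± 0.0177 kb in FISC (SD, n = 2) (difference 0.923 kb, SE 0.137, limma adjusted p = 0.0113). Its start window had 1.32 and 1.27 kb in ASC and 0.905 and 0.796 kb in FISC (limma adjusted p = 0.0423). The far-end window had 2.55 and 2.60 kb in ASC and 1.69 and 1.71 kb in FISC, and an end of the ribosomal protein gene Rps2 falls there. As the gene is 2364 bases long, these windows overlap, and the shared bases count in both. Ndufs1, the largest iron-sulphur subunit, had 2.33 and 2.50 kb in ASC and 1.91 and 1.76 kb in FISC (limma adjusted p = 0.0424). The libraries of the 2 states did not overlap at either gene.

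Smaller called genes of complex I included Ndufv3, in the NADH-oxidising module, with 1.01 and 1.46 kb in ASC and 0.440 and 0.588 kb in FISC (limma adjusted p = 0.0413). Ndufa8 had 1.39 and 1.64 kb in ASC and 0.920 and 0.689 kb in FISC (limma adjusted p = 0.0281). Ndufab1, the mitochondrial acyl carrier protein, had 1.47 and 1.52 kb in ASC and 0.832 and 0.931 kb in FISC (limma adjusted p = 0.0201). These were genes with short peaks in FISC, below 1 kb in each library. Ndufb9, Ndufa12, Ndufb3 and Ndufb4 were also called, with differences of 0.676, 0.597, 0.568 and 0.675 kb. Ndufa8, Ndufab1, Ndufb4 and Ndufv3 kept a higher ASC mean after division by total covered length, whereas Ndufa12, Ndufb10, Ndufb3, Ndufb9 and Ndufs1 turned lower. Ndufb4b and Ndufb4c, near-identical copies of Ndufb4 to which short reads can be assigned wrongly, had at most 0.336 kb in any library, and the value of Ndufb4 is uncertain for the same reason.

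Ndufs8, an iron-sulphur subunit, had the largest difference of complex I, 1.33 kb, but missed the threshold at its gene ends, with 3.15 and 4.25 kb in ASC and 2.41 and 2.33 kb in FISC (limma adjusted p = 0.0553). ASC replicate 2 stood apart there, and the start window alone had 2.09, 2.54, 1.56 and 1.42 kb (limma adjusted p = 0.0302). Ndufa10, an accessory subunit, went the other way, with 1.67 and 1.69 kb in ASC and 2.01 and 2.51 kb in FISC, a difference of -0.58 kb (limma adjusted p = 0.0845 as covered and 0.00712 after division). At its start the order was reversed, with 1.67 and 1.69 kb in ASC and 1.48 and 1.52 kb in FISC, and the FISC excess lay at the far end, which had 0 kb in both ASC libraries and 0.530 and 0.986 kb in FISC.

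Among the 8 Ndufaf assembly factors, 2 (25.0%) were called higher and 0 lower, against 26.5% and 3.61% of all genes. Ndufaf8 had 2.02 and 2.13 kb in ASC and 1.47 and 1.47 kb in FISC (limma adjusted p = 0.0255) and Ndufaf4 had 1.26 and 1.06 kb in ASC and 0.673 and 0.734 kb in FISC (limma adjusted p = 0.0472). Ndufaf4 was close to the threshold, and Ndufaf8 turned to a lower ASC mean after division. Ndufaf5, which modifies a core subunit, differed by 0.593 kb with 2.36 and 1.80 kb in ASC and 1.54 and 1.43 kb in FISC (limma adjusted p = 0.0996).

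The set held 8 genes of complex III, all covered, of which only Uqcr10 (12.5%) was called higher, against 26.5% of all genes. The iron-sulphur protein gene Uqcrfs1 had 2.27 and 2.60 kb in ASC and 1.37 and 1.90 kb in FISC (limma adjusted p = 0.0590), with no overlap between states. Uqcrc1 and Uqcrc2, the core proteins, differed by 0.259 and 0.232 kb, and Uqcr11 had 1.32 and 1.75 kb in ASC and 1.30 and 1.91 kb in FISC with overlapping libraries. After division by total covered length, the 7 genes other than Uqcr10 had lower ASC means.

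Complex IV, cytochrome c oxidase, held all of the genes without a peak at either gene end. Of its 20 genes in the set 12 were fitted and 8 had 0 kb in all 4 libraries. Of the 12, 3 (25.0%) were called higher and 0 lower, against 26.5% and 3.61% of all genes. Cox7b, at chrX:106015700-106022450, had 1.68 and 1.64 kb in ASC and 0.972 and 0.786 kb in FISC and means of 1.66 ± 0.0255 kb in ASC and 0.879 ± 0.132 kb in FISC (SD, n = 2) (difference 0.783 kb, SE 0.127, limma adjusted p = 0.0140). Ndufa4, named for complex I but placed with complex IV, had 2.17 and 2.09 kb in ASC and 1.60 and 1.51 kb in FISC (limma adjusted p = 0.0304), and Cox6c had 1.64 and 1.65 kb in ASC and 1.23 and 1.04 kb in FISC (limma adjusted p = 0.0431). Both states were separated at these 3 genes, and Ndufa4 and Cox6c turned to lower ASC means after division, while Cox7b did not. Cox8a, the ubiquitous subunit 8, had a larger difference of 1.20 kb but a wide spread, with 1.66 and 2.68 kb in ASC and 1.09 and 0.851 kb in FISC (limma adjusted p = 0.0595).

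Isoform genes expressed in many tissues were covered in both states. Cox4i1 had 2.52 and 2.46 kb in ASC and 1.98 and 2.31 kb in FISC, Cox6a1 had 1.12 and 1.45 kb in ASC and 0.762 and 1.16 kb in FISC, Cox6b1 had 0.786 and 1.05 kb in ASC and 0.863 and 0.594 kb in FISC and Cox7a2l, which encodes a factor of supercomplex assembly, had 2.07 and 2.28 kb in ASC and 1.71 and 1.64 kb in FISC. The partners restricted to other tissues or conditions, Cox4i2, Cox6b2, Cox7b2, Cox8c and Ndufa4l2, had 0 kb in all 4 libraries, Cox6b2, Cox7b2 and Cox8c being the testis forms. Of the 3 heart and skeletal muscle isoforms, Cox6a2 had 0 kb in all 4 libraries, Cox7a1 had 0.716 and 0.836 kb in ASC and 0.690 and 0 kb in FISC (limma adjusted p = 0.221) and Cox8b had 0.222 and 0.436 kb in ASC and 0.496 and 0.200 kb in FISC (limma adjusted p = 0.929). Neither of the covered muscle isoforms passed the test, and Cox8b overlapped between the states. In length covered in ASC, Cox8b lay well below the ubiquitous isoform Cox8a. Cox7a1 lay well below Cox7a2l, though that gene encodes an assembly factor. Cox7a1 was not compared with Cox7a2, whose gene-end windows miss its listed start. A list that holds only called peaks does not show that the mark was absent where no peak was called.

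**Figure D3:**
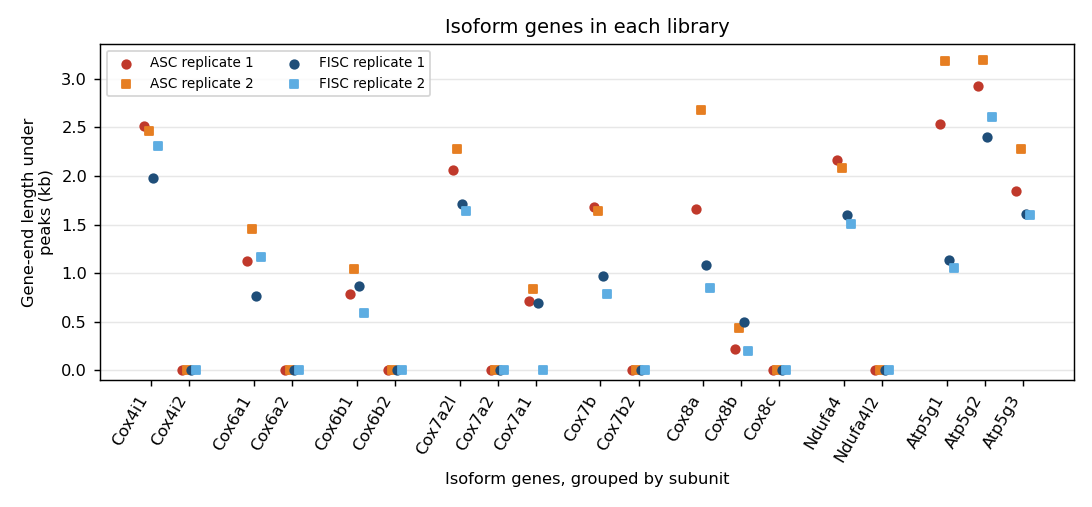
Gene-end length under peaks (kb, vertical axis) in each library for the isoform genes, grouped by subunit along the horizontal axis, with colour and symbol giving the library. Isoforms used in most tissues lie well above 0, while Cox4i2, Cox6a2, Cox6b2, Cox7b2, Cox8c and Ndufa4l2 lie at 0 in all 4 libraries, as does Cox7a2, whose listed start lies inside the annotated gene.

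The zeros of Cox5a and Cox7a2 come from the windows and not from missing peaks. Their listed starts lie 3904 and 11569 bases inside the annotated gene, and the 4 kb around those starts held 2.22 and 2.52 kb in ASC and 2.10 and 2.13 kb in FISC for Cox5a (limma adjusted p = 0.252) and 1.48 and 1.68 kb in ASC and 1.46 and 1.24 kb in FISC for Cox7a2 (limma adjusted p = 0.281). Atp5d, the delta subunit of the central stalk, was affected in the same way, with its start 3577 bases in. It had 1.98, 2.02, 1.24 and 1.06 kb at the start (limma adjusted p = 0.0114) against 2.91, 3.06, 2.46 and 2.75 kb at the gene ends (limma adjusted p = 0.147). With these starts counted, 6 complex IV genes remained without a peak in the windows examined. Of these only Cox6b2 and Cox7b2 have a listed start. An internal start could not be looked for at Cox4i2, Cox6a2, Cox8c and Ndufa4l2.

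Promoter sequences are shown for genes that differ in this pattern: Atp5b, with the smallest p, the ubiquitous and muscle isoforms Cox8a and Cox8b, Cox5a, whose start is internal, and Ndufa8, Atp5j2 and Sdhd, called genes with a motif of a factor known to act on respiratory genes. Each runs from 250 bases before to 50 bases after the start listed by RefSeq on GRCm38.p6, the assembly of mm10, in lower case, 5′ to 3′ on the gene's strand, with exact motif matches in capitals. They lie at chr10:128083057-128083356 (Atp5b, plus strand), chr19:7217567-7217866 (Cox8a, minus strand), chr7:140900397-140900696 (Cox8b, minus strand), chr9:57520982-57521281 (Cox5a, plus strand), chr2:36049289-36049588 (Ndufa8, minus strand), chr5:145191492-145191791 (Atp5j2, minus strand) and chr9:50603800-50604099 (Sdhd, minus strand). The capitals mark the ETS motif CCGGAAGT of GABPA in Cox8a, the letters TATAAA in Cox8b, the NRF1 core GCGCATGC in Ndufa8, the YY1 core AAGATGGC in Atp5j2 and the estrogen-related receptor motif TCAAGGTCA in Sdhd, each or its reverse complement. TATAAA is the motif of a TATA box, but in Cox8b it lies after the listed start and is given as a match of letters alone.
Atp5b: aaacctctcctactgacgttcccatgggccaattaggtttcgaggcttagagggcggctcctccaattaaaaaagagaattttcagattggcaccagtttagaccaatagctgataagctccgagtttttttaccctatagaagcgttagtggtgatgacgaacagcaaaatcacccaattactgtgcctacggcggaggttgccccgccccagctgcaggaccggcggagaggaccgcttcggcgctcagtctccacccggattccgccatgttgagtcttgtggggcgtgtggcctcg
Cox8a: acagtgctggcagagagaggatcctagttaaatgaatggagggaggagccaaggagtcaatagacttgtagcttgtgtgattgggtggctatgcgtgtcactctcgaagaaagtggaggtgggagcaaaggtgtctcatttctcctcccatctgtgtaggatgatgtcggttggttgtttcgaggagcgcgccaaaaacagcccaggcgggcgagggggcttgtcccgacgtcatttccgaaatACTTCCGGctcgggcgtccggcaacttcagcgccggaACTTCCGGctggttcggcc
Cox8b: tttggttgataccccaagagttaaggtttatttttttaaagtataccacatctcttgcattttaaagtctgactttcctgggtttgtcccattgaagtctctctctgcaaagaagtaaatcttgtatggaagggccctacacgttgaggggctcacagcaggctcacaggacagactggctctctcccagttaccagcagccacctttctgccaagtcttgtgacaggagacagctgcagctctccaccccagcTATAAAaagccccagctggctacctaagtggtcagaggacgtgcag
Cox5a: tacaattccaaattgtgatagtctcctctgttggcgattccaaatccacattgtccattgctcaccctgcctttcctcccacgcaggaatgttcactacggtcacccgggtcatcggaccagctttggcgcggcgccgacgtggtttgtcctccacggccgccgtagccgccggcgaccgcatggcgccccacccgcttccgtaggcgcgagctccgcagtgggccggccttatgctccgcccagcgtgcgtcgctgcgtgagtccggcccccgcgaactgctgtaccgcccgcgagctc
Ndufa8: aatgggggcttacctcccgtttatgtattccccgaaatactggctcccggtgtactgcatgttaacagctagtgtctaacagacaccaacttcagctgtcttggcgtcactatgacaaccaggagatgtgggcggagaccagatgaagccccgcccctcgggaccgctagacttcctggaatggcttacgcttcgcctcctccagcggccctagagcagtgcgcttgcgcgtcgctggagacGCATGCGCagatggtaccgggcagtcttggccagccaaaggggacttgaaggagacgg
Atp5j2: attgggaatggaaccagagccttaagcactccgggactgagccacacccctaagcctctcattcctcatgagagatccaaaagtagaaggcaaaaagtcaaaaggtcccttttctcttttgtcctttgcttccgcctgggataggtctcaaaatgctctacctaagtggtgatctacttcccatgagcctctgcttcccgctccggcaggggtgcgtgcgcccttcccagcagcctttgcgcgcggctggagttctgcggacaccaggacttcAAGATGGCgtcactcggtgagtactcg
Sdhd: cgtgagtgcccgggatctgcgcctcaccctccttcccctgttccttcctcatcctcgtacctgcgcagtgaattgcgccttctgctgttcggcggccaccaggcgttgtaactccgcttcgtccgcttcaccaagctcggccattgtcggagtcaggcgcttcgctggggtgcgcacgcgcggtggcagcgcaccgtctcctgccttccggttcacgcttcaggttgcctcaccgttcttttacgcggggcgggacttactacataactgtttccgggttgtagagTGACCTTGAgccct

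Cox8a and Cox8b, which encode versions of the same subunit, thus differed both in the mark and in the promoter. Cox8a held 19 CG dinucleotides and 2 ETS matches, at -6 and 32 from the start, and Cox8b held 2 CG dinucleotides and a TATAAA match at 5. Cox5a held 35 CG dinucleotides and none of the motifs. Over the 83 listed promoters of these genes the median was 20 CG dinucleotides and 58.3% GC, against 13 and 56.3% over all 21263 promoters.

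Exact matches on either strand were counted in windows of the same 300 bases. NRF1, a regulator of nuclear genes for mitochondrial proteins, had its core in 12 of 83 promoters (14.5%, against 3.52% of all promoters). The YY1 core lay in 11 (13.3%, against 3.05%), with Ndufaf8 and Atp5j2 among them, and the estrogen-related receptor motif in 2, Sdhd and Atp5g3 (2.41%, against 0.334%). The ETS motif was found in 5 (6.02%, against 5.15%) and TATAAA in 9 (10.8%, against 12.6%). At least 1 of the motifs other than TATAAA was present in 34.9% of these promoters, 11.3% of all promoters and 38.7% of those of mitochondrial ribosomal protein genes. The start window differed between ASC and FISC by a median of 0.363 kb at the 29 genes with such a motif and 0.451 kb at the 49 without. A match describes letters in this window and does not show a bound site.

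Windows of 2 kb on either side of the start alone were fitted in the same way, although at 9 genes no longer than 2 kb, Ndufaf3 and Ndufaf8 among them, such a window also holds the far end. A start was listed for 78 of the 96 genes and 76 were fitted, of which 24 were higher and 0 lower (limma adjusted p under 0.05), against 26.9% and 3.38% of all genes in that fit, with 37 (48.7%) higher and 0 lower at an unadjusted p under 0.05, against 40.5% and 5.53%. All 17 genes called at their gene ends that have a listed start were called there too, and Atp5d, Ndufb1, Ndufs3, Ndufs8, Ndufaf3, Cox7a2l and Cox8a were called there in addition. The median difference was 0.442 kb, against 0.294 kb over all genes.

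The covered stretch sat mostly just inside the gene and, with no scaling, reached farther there in ASC. In the 100-base bin centred 0.05 kb inside the start, 95.8 and 97.4% of bases lay under peaks in ASC and 92.2 and 92.6% in FISC, averaged over the 78 genes, so nearly all of it was covered in both states. At 0.95 kb inside they parted, with 48.2 and 66.6% in ASC and 11.5 and 22.6% in FISC, while 1.45 kb inside it was 7.21 and 17.6% in ASC and 0.18 and 1.28% in FISC. Upstream, at 0.95 kb before the start, they were 25.6 and 32.3% against 18.8 and 16.7%. Over all 17492 genes with a listed start the values at 0.95 kb inside were 27.6 and 31.8% in ASC and 20.7 and 20.6% in FISC, but there only 46.6 to 51.6% of bases were covered next to the start. Summed over 2 kb, the respiratory genes had means of 0.951 and 1.08 kb inside the gene in ASC and 0.741 and 0.747 kb in FISC, and 0.661 and 0.747 kb against 0.563 and 0.536 kb upstream.

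**Figure D4:**
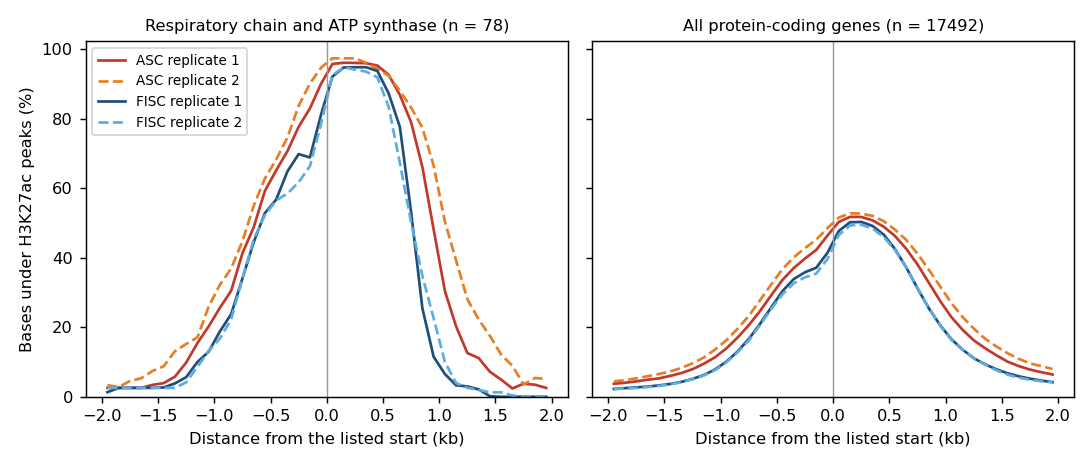
Share of bases under H3K27ac peaks (%, vertical axis) by distance from the listed start (kb, horizontal axis, positive values inside the gene) in 100-base bins, for the 78 respiratory chain and ATP synthase genes with a listed start and for all 17492 genes, 1 line a library. The 4 lines nearly meet next to the start of the respiratory genes and part at about 0.95 kb inside, where ASC has 48.2 and 66.6% and FISC 11.5 and 22.6%.

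The length of the peak over the start was then measured directly, a measure chosen after that profile had been seen. For the 73 genes with a peak over the base 250 bases inside the start in all 4 libraries, the median distance from the start to the inner edge of that peak was 0.956 and 1.06 kb in ASC and 0.767 and 0.772 kb in FISC. The inner edge lay farther in both ASC libraries than in both FISC libraries at 52 genes (71.2%), against 57.3% of all 8160 genes measured the same way, and nearer at 0, against 7.44%. The median shift was 0.224 kb (quartiles 0.102 and 0.378 kb), against 0.159 kb over all genes. The outer edge was farther in both ASC libraries at 46 genes (63.0%, against 53.7%) and nearer at 4 (against 8.01%), with a median shift of 0.145 kb against 0.120 kb.

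Atp5g1 had the largest shift of the inner edge, from 0.705 and 0.710 kb in FISC to 1.82 and 1.71 kb in ASC. Cox7b followed with 1.38 and 1.43 kb in ASC and 0.682 and 0.578 kb in FISC. Sdhd had 1.11 and 1.53 kb against 0.689 and 0.702 kb, and Cox5a had 1.59 and 1.66 kb against 1.04 and 1.10 kb. ASC and FISC libraries were apart at each of these 4. Sdhd and Cox5a are examples, as Cox8a and Sdhb had larger mean shifts than Cox5a. At Cox5a the outer edge lay nearer in both ASC libraries, at 0.626 and 0.857 kb against 1.059 and 1.035 kb in FISC. Ndufa6 had 1.03 and 2.30 kb against 0.858 and 1.18 kb, where ASC replicate 2 alone set the difference. Edges were not scaled for the longer ASC lists.

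**Figure D5:**
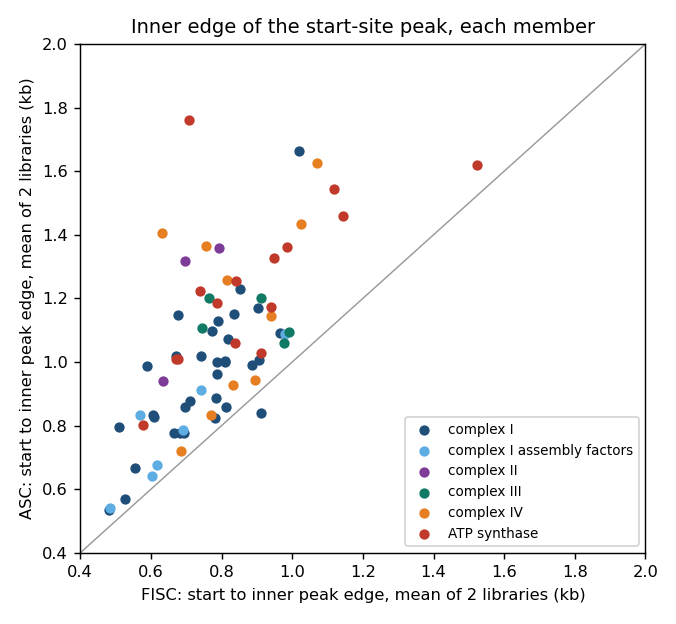
Distance from the listed start to the inner edge of the start-site peak (kb), mean of 2 FISC libraries on the horizontal axis and of 2 ASC libraries on the vertical axis, 1 point for each of 73 genes, coloured by complex, with the line of equal values. Most points lie above the line, and Atp5g1 lies farthest from it, with a mean shift of 1.05 kb.

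The strongest peaks at these genes ranked high among all peaks of their library. The same rank was not taken for other genes, so it is not shown to be particular to this set. A gene's strongest peak, ranked by the authors' deposited fold enrichment among the peaks of its own library, had a median percentile of 90.2 and 91.9 in ASC and 89.6 and 88.4 in FISC. It reached the 90th percentile at 45 and 53 of 88 genes in ASC, 40 of 86 in FISC replicate 1 and 37 of 87 in FISC replicate 2. Uqcrq, a small subunit of complex III, had the strongest peak in 3 libraries, with the authors' fold of 45.4 and 38.3 in ASC and 23.8 in FISC replicate 2, and Atp5j, a peripheral stalk subunit, had it in FISC replicate 1 with 25.3. Cox8b was the weakest in all 4 libraries, at percentiles of 25.0, 29.9, 29.4 and 17.2. Folds of different libraries depend on their depth and were not compared.

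Uqcrq, with the strongest peaks, did not pass the test of breadth, at 2.29 and 2.15 kb in ASC and 1.79 and 1.90 kb in FISC, a difference of 0.371 kb (limma adjusted p = 0.0982). In ASC 68 and 61 genes had exactly 1 peak in their windows and 20 and 27 had more, and in FISC the counts were 60 and 67 with 1 peak and 26 and 20 with more.

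Other genes often shared these windows. An end of another protein-coding gene fell within the windows of 59 of the 96 genes, and none was another gene of the set. Of these 59, 56 were fitted and 17 (30.4%) were called higher, with a median difference of 0.496 kb. Of the 37 without such a neighbour 32 were fitted and 5 (15.6%) were called, with a median of 0.300 kb. Over all fitted genes 26.5% were called higher, with a median of 0.304 kb. Other genes were not split by neighbour, and the contrast was not tested. Breadth cannot be assigned to 1 gene of such a pair, as with Atp5j, which shares its windows with Gabpa, the gene of an ETS factor that regulates respiratory genes. Atp5j had 2.50 and 2.73 kb in ASC and 2.10 and 2.33 kb in FISC (limma adjusted p = 0.126). The far end added little for most genes, with 0 kb in all 4 libraries at 49 of the 78 with a listed start.

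Genes that build or feed the chain were counted from lists in the same fit. Of 41 assembly factors and electron carriers, 40 were fitted and 9 (22.5%) were higher and 0 lower, against 26.5% and 3.61% of all genes, with a median difference of 0.334 kb. At an unadjusted p under 0.05 in limma 14 of the 40 were higher and 0 lower, against 40.3% and 6.10% of all genes. Cox20, which guides an oxidase subunit encoded by mitochondrial DNA, had 5.19 and 5.64 kb in ASC and 3.49 and 3.08 kb in FISC (limma adjusted p = 0.00736). Sdhaf1, which inserts iron-sulphur clusters into complex II, had 2.01 and 2.17 kb in ASC and 0.864 and 1.07 kb in FISC (limma adjusted p = 0.00803). Cox17, a copper chaperone of complex IV, had 1.52 and 1.64 kb in ASC and 0.783 and 0.980 kb in FISC and Tmem70, needed for ATP synthase assembly, had 1.95 and 1.85 kb in ASC and 1.12 and 1.26 kb in FISC (limma adjusted p = 0.0208 and 0.0187). After division by total covered length 0 genes of the list were higher and 14 lower, against 9.19% and 36.6% of all genes. The median was then -0.31 kb. These 4 kept higher ASC means then, with no call, while the other called genes, Sdhaf2, Ttc19, Lyrm7, Cox10 and Taco1, turned to lower ones. At equal covered length 9 of the 40 were higher and 0 lower, against 15.8% and 13.0% of all genes. Cycs, cytochrome c itself, had 1.86 and 2.12 kb in ASC and 1.66 and 1.72 kb in FISC (limma adjusted p = 0.172).

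Of 17 genes of the tricarboxylic acid cycle and pyruvate dehydrogenase, 16 were fitted and 4 (25.0%) were higher and 0 lower as covered, against 26.5% and 3.61% of all genes. At an unadjusted p under 0.05 in limma 8 of the 16 were higher and 0 lower, against 40.3% and 6.10%. After division by total covered length 0 were higher and 6 lower, against 9.19% and 36.6% of all genes, with a median of -0.42 kb. At equal covered length 2 of the 16 were higher and 0 lower, against 15.8% and 13.0% of all genes. Pdhb, a subunit of pyruvate dehydrogenase, had 3.25 and 2.80 kb in ASC and 1.45 and 1.25 kb in FISC (limma adjusted p = 0.00701), and Idh3a, of isocitrate dehydrogenase, had 1.96 and 2.24 kb in ASC and 1.34 and 0.867 kb in FISC (limma adjusted p = 0.0272). The other two, Suclg1 and Dld, differed by 0.610 and 0.517 kb as covered and by -0.19 and -0.12 kb after division. Of 18 regulators of mitochondrial biogenesis, 16 were fitted and, as covered, 1 (6.25%) was higher and 0 lower, against 26.5% and 3.61% of all genes. That gene was Tfb2m, a mitochondrial transcription factor, with 2.20 and 2.37 kb in ASC and 1.47 and 1.70 kb in FISC (limma adjusted p = 0.0283) and a difference of -0.15 kb after division. At an unadjusted p under 0.05 in limma 3 of the 16 (18.8%) were higher and 0 lower, against 40.3% and 6.10%. After division 0 of the 16 were higher and 6 lower, with a median of -0.51 kb, against 9.19% and 36.6% of all genes. At equal covered length 1 was higher and 3 were lower, against 15.8% and 13.0% of all genes. Ppargc1a, the gene of the coactivator PGC-1alpha, had 1.27 and 0.349 kb in ASC and 0.470 and 0.00200 kb in FISC with overlapping libraries, and Esrra, an estrogen-related receptor gene, had 4.07 and 4.78 kb in ASC and 3.59 and 3.26 kb in FISC (limma adjusted p = 0.0613).

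Genes that steer pyruvate away from the chain were mixed. Pdk4, a kinase that inactivates pyruvate dehydrogenase, had 3.16 and 3.10 kb in ASC and 1.88 and 1.60 kb in FISC (limma adjusted p = 0.00631), Pdk3 had 0.936 and 0.974 kb in ASC and 0.434 and 0.482 kb in FISC (limma adjusted p = 0.0211), and Bnip3, a hypoxia target involved in mitophagy, had 1.77 and 1.99 kb in ASC and 0.954 and 0.713 kb in FISC (limma adjusted p = 0.0111). Pdk2 went the other way with 0.477 and 0.720 kb in ASC and 1.20 and 1.11 kb in FISC (limma adjusted p = 0.0340). Pdk2 was also lower after division and at equal length, and Pdk4 kept its direction in both, whereas Bnip3 turned to -0.27 kb and Pdk3 was at 0.010 kb at equal length. As covered, 3 were higher and 1 lower of 7 fitted among 9 genes listed, against 26.5% and 3.61% of all genes. After division 1 was higher, Bnip3, and 3 were lower, Pdk1, Pdk2 and Higd1a, against 9.19% and 36.6% of all genes. At equal length 1 was higher and 1 lower of 6 fitted, against 15.8% and 13.0% of all genes.

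Mitochondrial and cytosolic ribosomal protein genes were counted in the same fit, with no test of a difference between groups. Among mitochondrial ribosomal protein genes 20 of 77 fitted genes were higher (26.0%) and 0 lower, with a median of 0.379 kb, and 35 (45.5%) were higher and 1 lower at an unadjusted p under 0.05 in limma, against 40.3% and 6.10% of all genes. Among cytosolic ribosomal protein genes 36 of 79 were higher (45.6%) and 0 lower, with a median of 0.688 kb, and 51 (64.6%) were higher and 0 lower at that unadjusted p. After division by total covered length the medians were -0.24 kb for respiratory chain and ATP synthase genes, -0.25 kb for mitochondrial and -0.34 kb for cytosolic ribosomal protein genes.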

How the data were processed

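The 4 H3K27ac libraries were each deposited as a narrow peak list, with 1 list per library and no pooling. Per the submitters' processing notes, bcl2fastq 2.19, BWA, Picard and MACS2 were used with mm10. Settings, duplicate handling and use of the inputs are not given in the sources consulted. The deposited fold enrichment is a ratio that the authors' peak caller made against a background. The deposited −log10 p and −log10 q come from the same caller, and the deposited score equals 10 times −log10 q without its decimals. Scores and p entered no test. The q and fold served as thresholds in alternatives, and fold ranked peaks within a library.

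From peak positions, the bases under peaks within 2 kb of either gene end were summed for 21887 genes of RefSeq on GRCm38.p6, the windows being merged where they met. Genes with a peak in 2 or more libraries entered a fit with limma 3.58.1 (R 4.3.3, eBayes with trend) on the linear kb scale, with state as the 1 term and Benjamini-Hochberg adjustment over all genes fitted. The fit was tested on simulated data. Genes were named as the called members with the largest differences, the 2 largest of each complex, all of complex II and of the isoform sets, all members with no peak, and those with the strongest peaks; some genes that this rule or the lists take enter the counts but are not reported here by name. The members and lists were chosen with earlier results of these data known. Labels share replicate numbers, but with 2 pairs they do not show a pairing. Strand came from listed promoters. Sequences are RefSeq's. Chromosome coordinates are 1-based.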

Additional observations from a re-analysis of the deposited data

How the results depend on the processing

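The 22 calls depended on library, filter, window and scale. Leaving out 1 library each gave 0 to 34 respiratory genes higher, 677 to 3530 of all genes higher and 62 to 373 lower. With no filter on covered libraries 4 respiratory genes were higher (all genes 1245 higher and 167 lower). Windows of 1 kb gave 11 (1912 and 226) and a median difference of 0.25 kb, and windows of 5 kb put 2 genes lower, Ndufa10 and Ndufb7. Equal covered length gave 1908 and 1578 of all genes, and peaks of at least 5-fold left 282 lower. The other settings kept the number of respiratory genes called higher within 1.5 times of 22. Read depth is unknown, so precision could be judged from the spread between libraries alone. The cause was not tested.

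Division by total covered length left 3 respiratory genes higher and 17 lower (all genes 1188 and 4735) and turned the median to -0.24 kb. Among called genes it reversed Atp5a1 (-0.17 kb), Atp5c1 (-0.12), Atp5j2 (-0.089), Cox6c (-0.11), Ndufa12 (-0.014), Ndufa4 (-0.24), Ndufaf8 (-0.18), Ndufb10 (-0.21), Ndufb3 (-0.24), Ndufb9 (-0.13) and Ndufs1 (-0.38). Genes not called as covered that became lower were Atp5d (-0.89), Atp5g2 (-0.70), Atp5h (-0.82), Atp5j (-0.70), Atp5mpl (-0.71), Atp5pb (-0.84), Ndufa11 (-0.79), Ndufaf1 (-0.50), Ndufaf2 (-0.52), Ndufaf3 (-0.65), Ndufb6 (-1.20), Ndufv2 (-1.22) and Uqcrh (-0.98).

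Deviations of same-numbered libraries had a correlation of r = -0.02 across 12924 genes, which are not independent. With 2 libraries a state this can neither show nor exclude a pairing. The fit with the replicate block called 21 respiratory genes higher, 17 of them among the 22. It called 3001 of all genes higher and 432 lower.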
